A study of Arabidopsis thaliana with 16 samples.

Results

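The comparison described here is the step from the second to the third of 4 longitudinal zones of the Arabidopsis thaliana root on acidic medium, pH 4.6. Its members are the 4 arrays labelled zone 2 or zone 3 at pH 4.6, 2 of each, among 16 arrays in all. Every probe set other than the 64 controls was a candidate, and the 16405 of 22810 that passed a filter on dim signal were tested. Roots were of the Columbia ecotype and 6 days old. All seedlings, controls included, spent their first 5 days at pH 5.7 and a final 24 h on fresh medium of pH 4.6 or pH 5.7 holding Murashige and Skoog salts, sucrose, agar and the buffer DMG. RNA of each zone was hybridised to an Affymetrix genome array after 2 rounds of amplification, which gives 8 groups of 2 arrays. The labels call the zones developmental stages and do not say which tissue each holds, nor whether replicates came from separate plates, so p-values measure only the spread between these arrays, which may be technical.

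A root grows from its tip. Cells divide near the tip, then elongate, then differentiate, so a series of sections along the root is also a series in cell age. Dividing and newly formed cells make many ribosomes. In differentiating cells the epidermis forms root hairs and the endodermis builds the Casparian strip, a lignin barrier whose polymer needs peroxidases and is positioned by dirigent proteins, before it is coated with suberin, a polyester. External acidity acts on the cell wall directly, because wall proteins such as expansins loosen it at low pH.

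Each value is a deposited MAS5 intensity, a linear probe set brightness that the authors had scaled so that the trimmed mean is 249.9 on every array. Differences are on the scale log2(intensity + 16), zone 3 minus zone 2, with the standard error (SE) of a limma fit on all 16 arrays and p-values adjusted over all 16405 tests (Benjamini-Hochberg). A probe set is said to rise, fall or change where that adjusted p was below 0.05. For dim probe sets this scale gives too small a change. With 2 arrays a group, an exact permutation test of a single gene cannot give a two-sided p below 0.333. Intensities are not compared between genes. In bulk RNA, fewer cells of a type and less RNA per cell cannot be told apart.

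Pearson r between the replicates at pH 4.6, over tested probe sets, was 0.948 in zone 2 and 0.927 in zone 3. At pH 5.7 it was 0.924 in zone 2 and 0.838 in zone 3, the lowest of the 8 groups, where the mean log2 level of the plastid-encoded probe sets was 7.76 in replicate 1 and 10.31 in replicate 2. Array features moved with the zones or with 1 array. The GAPDH control is read at both ends of its RNA, and its 3′ signal over its 5′ signal, on a log2 scale, was 6.35 and 6.04 in zone 2 and 4.13 and 4.44 in zone 3. At pH 5.7 the same ratio was 4.39 and 6.16 in zone 2 and 5.08 and 5.59 in zone 3, so that the zones overlapped there. Replicate 2 of zone 2 stood nearer to zone 3 than replicate 1 did: over the 2231 probe sets that rose at pH 5.7 (13.6%), arrays not used in this step, it exceeded replicate 1 in 70.5% of cases, against 50% of all tested probe sets. The 69 plastid-encoded probe sets were all brighter in replicate 2 of zone 3 than in replicate 1, with a median log2 difference of 2.06. What part these features play in the results was not tested.

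At pH 4.6, 3216 of the 16405 tested probe sets (19.6%) changed between the zones, 1653 of them higher in zone 3 (10.1%) and 1563 lower (9.53%). Rises were larger than falls: 121 probe sets rose at least 16-fold and 6 fell as much. The largest rise, 8.02, and the largest fall, -5.73, belong to probe sets without a gene name in the annotation used, as do 1518 of those that changed. In 610 of the rises the zone 2 mean was below the level of the dim-signal filter, 5.95, so their folds depend on that background. That filter kept a probe set if any 1 zone was bright enough, so these were tested because other arrays were brighter. Counts and medians of gene lists likewise cover only members that passed it. Both zone 3 arrays exceeded both zone 2 arrays in 4942 probe sets (30.1%) and lay below both in 5275 (32.2%). The count of 3216 became 1491 without replicate 1 of zone 2, 2224 without replicate 2 of zone 2, 1843 without replicate 1 of zone 3 and 2092 without replicate 2 of zone 3.

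**Figure D1:**
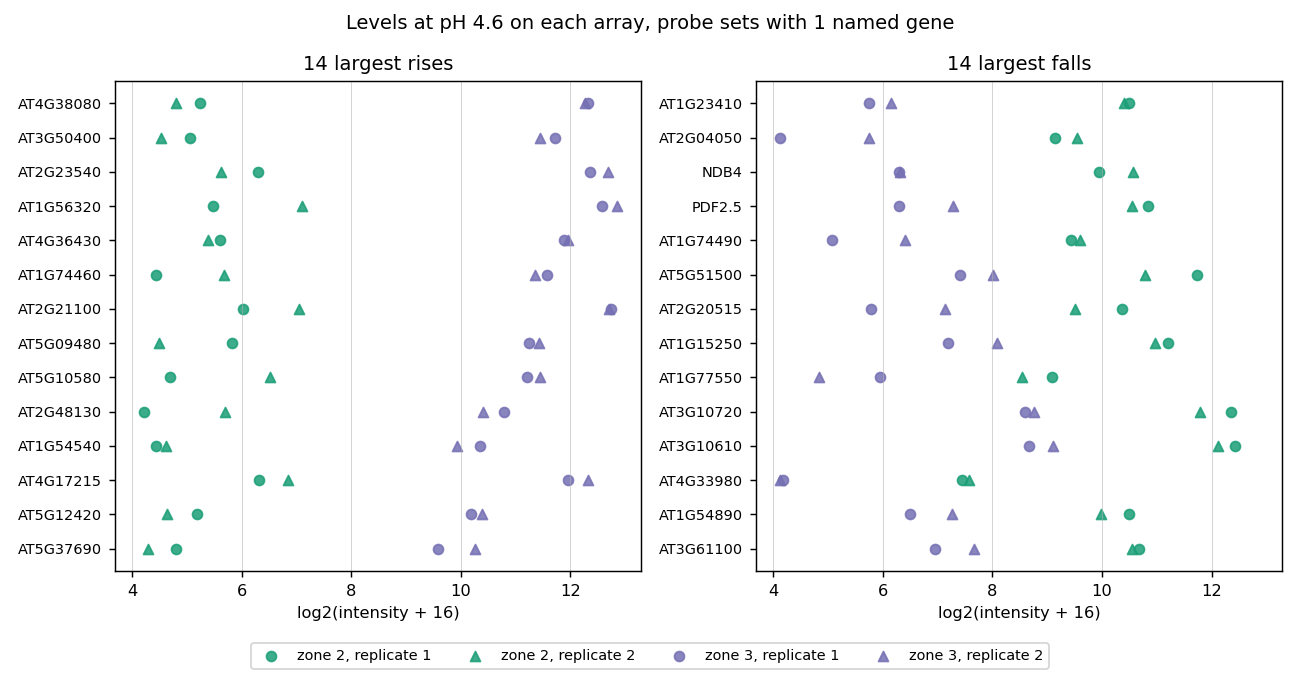
Level on each of the 4 arrays at pH 4.6, as log2(intensity + 16), for the 14 largest rises and the 14 largest falls among probe sets with 1 named gene. Green marks zone 2, violet zone 3, circles replicate 1 and triangles replicate 2. The zones do not overlap for any of the 28 genes, a condition of their selection, and zone 2 levels of the rising genes lie near the bottom of the scale.

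Families are given by locus from general knowledge of the Arabidopsis genome, since the annotation used here names genes and does not describe them. A locus is left without a role where none is certain. Of the 14 largest rises among named genes, 4 are GDSL lipases, secreted esterases some of which build or open cutin and suberin, 1 is a class III peroxidase, 1 a dirigent protein and 1 a lipid-transfer protein. All 14 kept the call without any 1 of the 4 arrays.

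AT4G38080 had intensities of 21.6 and 11.8 in zone 2 and 5101 and 4934 in zone 3. It was near background in zone 2 and bright in zone 3, a rise of 7.28 (SE 0.43, adjusted p = 8.37e-08), the largest of a named gene. The GDSL lipase AT3G50400 had 17.4 and 7.2 in zone 2 and 3351 and 2767 in zone 3, and its level rose by 6.78 (SE 0.51, adjusted p = 7.44e-07). For the GDSL lipase AT2G23540 the intensities were 62.4 and 33.3 in zone 2 and 5215 and 6564 in zone 3, a rise of 6.56 (SE 0.42, adjusted p = 1.71e-07). In both lipases the zones lay far apart on every array. AT1G74460, also of that family, had 5.69 and 35.1 in zone 2 and 3023 and 2614 in zone 3 and rose by 6.41 (SE 0.49, adjusted p = 7.61e-07). AT5G37690, the fourth, had 11.9 and 3.5 in zone 2 and 752 and 1205 in zone 3, with the widest zone 3 spread of the 4, and rose by 5.38 (SE 0.64, adjusted p = 3.53e-05).

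Among wall enzymes, the class III peroxidase AT4G36430 had intensities of 32.9 and 25.7 in zone 2 and 3744 and 3979 in zone 3. Its replicates lay close together in both zones, and its rise of 6.42 (SE 0.38, adjusted p = 8.37e-08) was among the 4 with the smallest error for their size. The dirigent protein AT2G21100 had 48.8 and 117 in zone 2 and 6875 and 6691 in zone 3 and rose by 6.20 (SE 0.42, adjusted p = 2.75e-07). The lipid-transfer protein AT2G48130 had 2.64 and 35.7 in zone 2 and 1752 and 1347 in zone 3 and rose by 5.64 (SE 0.53, adjusted p = 4.02e-06). In AT2G21100 and AT2G48130 replicate 2 of zone 2 was the brighter of its pair, while zone 3 stayed well above both. The other 7 of the 14, AT1G56320, AT5G09480, AT5G10580, AT1G54540, AT4G17215, AT5G12420 and AT4G38080, have no role stated here, and their rises ran from 5.38 (AT5G12420) to 7.28 (AT4G38080). By group means at pH 4.6, zone 4 was brighter still than zone 3 for 8 of the 14, and zone 3 was the brightest of the 4 zones for the other 6. The arrays of zones 3 and 4 overlapped in some of the 14, among them AT1G74460 and AT5G12420.

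Class III peroxidases, which use hydrogen peroxide to couple phenols such as lignin precursors and to cross-link wall proteins, rose in 22 of 41 tested members and fell in 1, AT3G28200. The 41 are those of 55 with a single-gene probe set that passed the dim-signal filter. Of all tested probe sets, 10.1% rose and 9.53% fell. The median difference of the peroxidases was 1.45, against -0.03 over all tested probe sets. Both zone 3 arrays exceeded both zone 2 arrays in 29 of the 41, beside the 30.1% of all probe sets. AT5G66390 had intensities of 22.1 and 283 in zone 2 and 4276 and 3779 in zone 3, so that its zone 2 replicates alone lay far apart, both below zone 3. It rose by 5.24 (SE 0.82, adjusted p = 0.000335). AT5G51890 had 45.3 and 126 in zone 2 and 2201 and 2491 in zone 3 and rose by 4.66 (SE 0.61, adjusted p = 8.50e-05). The 23 changes became 13 without replicate 1 of zone 2, the array that was lower for most peroxidases. That replicate was below replicate 2 in 29 of the 41.

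**Figure D2:**
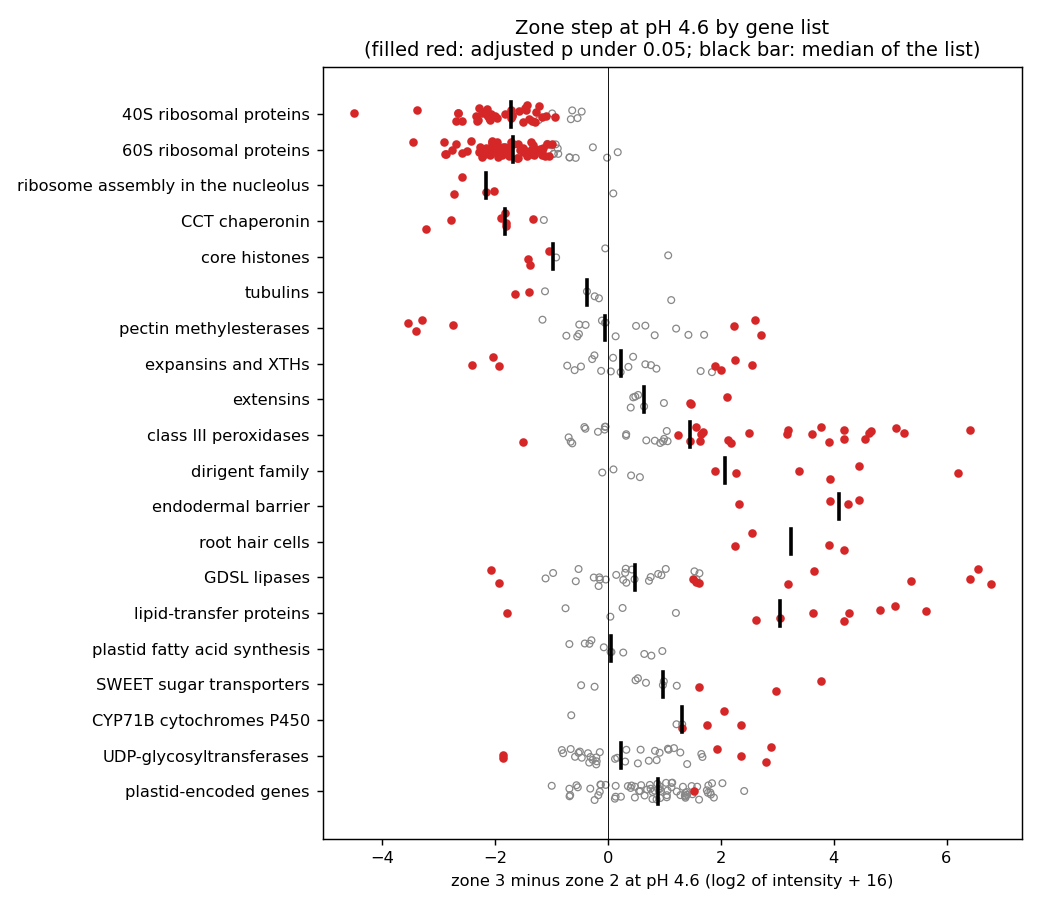
Zone 3 minus zone 2 at pH 4.6, as a difference of log2(intensity + 16), for each tested member of 20 gene lists. Filled red points passed the test, open points did not, and the black bar is the median of the list. Ribosomal proteins and the CCT chaperonin lie to the left of 0, and peroxidases, lipid-transfer proteins and the 4 endodermal genes mostly to the right.

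Genes of the endodermal barrier were analysed for 4 of the 16 listed, the others having no single-gene probe set among those tested. All 4 rose and all 4 kept the call without any 1 array, with a median of 4.10. The dirigent protein AT4G13580 had intensities of 134 and 998 in zone 2 and 8451 and 8643 in zone 3 and rose by 4.46 (SE 0.72, adjusted p = 0.000452). The dirigent protein AT2G39430 had 54.8 and 334 in zone 2 and 2638 and 2171 in zone 3 and rose by 3.94 (SE 0.59, adjusted p = 0.000243). In both, zone 3 was above zone 2 on every array, and replicate 2 of zone 2 lay several times above replicate 1. GSO1, the receptor kinase that surveys the integrity of the Casparian strip, had 111 and 215 in zone 2 and 828 and 842 in zone 3 and rose by 2.32 (SE 0.39, adjusted p = 0.000647). AT1G61590, a kinase that acts with that receptor, had 4.57 and 25.6 in zone 2 and 440.5 and 670.0 in zone 3 and rose by 4.26 (SE 0.42, adjusted p = 5.85e-06). Over the whole dirigent family, 10 of 15 members with a single-gene probe set were tested. Of the 10, 6 rose and none fell by the test, with a median of 2.08. These and the 4 endodermal genes stand beside 10.1% of all tested probe sets that rose and 9.53% that fell. The 6 include the 2 endodermal genes and AT2G21100. HCT, an enzyme of lignin precursor synthesis and the single tested member of that list, had 1200 and 1884 in zone 2 and 7521 and 4412 in zone 3 and rose by 1.93 (SE 0.31, adjusted p = 0.000487).

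Lipid-transfer proteins are small secreted proteins that carry lipids to cutin, wax and suberin. They rose in 8 of 13 tested members and fell in 1, with a median of 3.04. Of all tested probe sets, 10.1% rose and 9.53% fell. These 13 are the members, of 24 with a single-gene probe set, that passed the dim-signal filter. Some, such as AT3G53980, were dim in zone 2 and were tested because other zones were bright. This list, which holds AT2G48130, and that of the GDSL lipases were assembled after leading genes had been seen. Their counts and medians are therefore a description. AT1G48750 had intensities of 139 and 138 in zone 2 and 4250 and 4410 in zone 3, with nearly equal replicates in each zone, and rose by 4.82 (SE 0.36, adjusted p = 6.88e-07). AT5G13900 had 61.7 and 152 in zone 2 and 4583 and 3223 in zone 3 and rose by 5.08 (SE 0.43, adjusted p = 1.67e-06). AT3G53980 had 9.83 and 4.39 in zone 2 and 347 and 519 in zone 3 and rose by 4.26 (SE 0.44, adjusted p = 9.88e-06). The zones did not overlap in any of these. AT2G27130, the member that fell, had 413 and 340.1 in zone 2 and 105 and 91.3 in zone 3, a difference of -1.78 (SE 0.35, adjusted p = 0.00179). GDSL lipases were more mixed, with 9 rises and 2 falls among 35 tested members, of 70 with a single-gene probe set, and a median of 0.47. These counts stand beside the same 10.1% and 9.53% of all tested probe sets. AT5G14450 fell by 2.07 and AT4G16230 fell by 1.94.

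Root hair genes rose in all 4 tested members of 29 listed, beside 10.1% of all tested probe sets, with a median of 3.24. The other listed genes have no single-gene probe set. All 4 are counted in a second list too, AT1G30870 and AT4G26010 among the peroxidases and EXPA7 and EXPA18 among the expansins and their relatives below. The peroxidase AT1G30870 had intensities of 6.54 and 145 in zone 2 and 1052 and 1098 in zone 3 and rose by 4.18 (SE 0.65, adjusted p = 0.000337). The peroxidase AT4G26010 had 3.11 and 52.4 in zone 2 and 568 and 497 in zone 3 and rose by 3.92 (SE 0.53, adjusted p = 0.000112). For both, replicate 2 of zone 2 was well above replicate 1 and well below zone 3. EXPA7, a root hair expansin, had 30.7 and 56.8 in zone 2 and 498 and 212 in zone 3 and rose by 2.55 (SE 0.61, adjusted p = 0.00728). EXPA18, its close relative, had 33.1 and 47.5 in zone 2 and 290.5 and 213 in zone 3 and rose by 2.25 (SE 0.61, adjusted p = 0.0168), a call lost in each fit without 1 of the 4 arrays. The 4 calls of the list became 2 without replicate 1 of zone 2 and 2 without replicate 1 of zone 3. At pH 5.7 the same 4 genes rose with a median of 6.15, and the difference between the steps was negative in all 4. By limma it passed the test in none, and the unadjusted p was below 0.05 in all 4. Of all 16405 tested probe sets, 2021 had such a p for this difference, in either direction.

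Other wall families are set beside the 10.1% of all tested probe sets that rose and the 9.53% that fell. Extensins had rises alone, and the others had calls in both directions. Pectin methylesterases, which strip methyl groups from pectin and so change its stiffness, rose in 3 and fell in 4 of 23 tested members. This list too was assembled after leading genes had been seen. AT5G51500 had intensities of 3413 and 1744 in zone 2 and 154 and 243 in zone 3 and fell by 3.55 (SE 0.47, adjusted p = 8.13e-05). AT3G10720 had 5231 and 3538 in zone 2 and 372 and 416 in zone 3 and fell by 3.40 (SE 0.45, adjusted p = 8.36e-05). The rises were PMEPCRF by 2.71, AT5G19730 by 2.61 and AT5G20860 by 2.23. Expansins and xyloglucan endotransglucosylase/hydrolases (XTHs), which loosen and re-join wall polymers, rose in 4 and fell in 3 of 23. XTH20 had 54.7 and 111 in zone 2 and 293 and 449 in zone 3 and rose by 2.00 (SE 0.48, adjusted p = 0.00788). XTH19 had 3117 and 2274 in zone 2 and 342 and 690.4 in zone 3 and a difference of -2.41 (SE 0.68, adjusted p = 0.0206). The 7 calls in these 23 became 1 without replicate 1 of zone 2, 4 without its replicate 2, 1 without replicate 1 of zone 3 and 4 without its replicate 2. Of 9 tested extensins, rod-like wall glycoproteins, 3 rose and none fell, and these calls were not steady when single arrays were left out. The 3 are AT4G08410, AT1G23720 and HRGP1. All have probe sets of the kind that the array's naming marks as mixed, which can also detect other genes. They may therefore not stand for 3 separate genes.

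Among transporters and metabolism, 3 of 11 tested SWEET sugar transporters rose and kept the call without any 1 array. SWEET14 had intensities of 12.2 and 6.52 in zone 2 and 327 and 334 in zone 3 and rose by 3.78 (SE 0.46, adjusted p = 3.78e-05). SWEET13 rose by 2.98 and SWEET17 by 1.61. Of all tested probe sets, 10.1% rose. Of 38 tested UDP-glycosyltransferases, which attach sugars to small molecules, 4 rose and 2 fell, beside 10.1% and 9.53% of all tested probe sets. The 6 calls became 2 without replicate 1 of zone 2 and 4 without either array of zone 3, with 5 without replicate 2 of zone 2. Of 8 tested genes of the carbon and mitochondrial response to low pH, FDH and PDC2 rose and ICL and NDB3 fell. These calls stand beside the same 10.1% and 9.53%. ICL, isocitrate lyase, had 2945 and 2716 in zone 2 and 696 and 729.5 in zone 3 and fell by 1.97 (SE 0.38, adjusted p = 0.00187). The 4 calls became 1 without replicate 1 of either zone and 2 without replicate 2 of zone 3. The 3 tested proton pump genes were VHA-A1, VHA-A2 and VHA-A3, subunits of the V-ATPase, a proton pump of membranes inside the cell. They did not pass limma's test, 1 having an unadjusted p below 0.05, with differences of -0.30, 0.07 and 0.79.

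Cytosolic ribosomal proteins, the building blocks of the machine that makes proteins, were lower in zone 3. Of 122 tested members, 103 fell and none rose by limma, also none at an unadjusted p below 0.05, with a median of -1.71. Of all tested probe sets, 9.53% fell. Both zone 3 arrays lay below both zone 2 arrays in 119 of the 122, beside the 32.2% of all tested probe sets. By subunit, 38 of 44 tested proteins of the small subunit and 65 of 78 of the large subunit fell, with medians of -1.72 and -1.69. Without replicate 1 of zone 2 the count of 103 became 67, and 63 of the 103 kept the call whichever of the 4 arrays was left out. AT1G23410, a small-subunit protein made as a fusion with ubiquitin, had intensities of 1424 and 1334 in zone 2 and 37.9 and 55.1 in zone 3. It fell by 4.49 (SE 0.29, adjusted p = 1.59e-07), the largest fall of a named gene. AT1G15250, of the large subunit, had 2338 and 1998 in zone 2 and 129.6 and 255 in zone 3 and fell by 3.45 (SE 0.34, adjusted p = 5.85e-06). AT3G10610, of the small subunit, had 5529 and 4451 in zone 2 and 392 and 537 in zone 3 and fell by 3.39 (SE 0.32, adjusted p = 4.72e-06). In all 3 the zones were separated on every array. AT2G37190, also of the large subunit, had 20260 and 18990 in zone 2 and 2800 and 2451 in zone 3 and fell by 2.90 (SE 0.26, adjusted p = 2.74e-06). By group means across the 4 zones at pH 4.6, 118 of the 122 were brightest in zone 1, and zone 4 was above zone 3 in 94. No such shares are given over all tested probe sets, so neither count is read as particular to ribosomal proteins. Each protein is encoded by several similar genes, and none of the 122 probe sets is of the kinds that the array's naming marks as shared between genes or mixed.

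Of 5 tested genes of ribosome assembly in the nucleolus, 4 fell and kept the call without any 1 array, with a median of -2.15. AT1G52930 had intensities of 2624 and 1935 in zone 2 and 243 and 442 in zone 3 and fell by 2.72 (SE 0.37, adjusted p = 0.000107). AT5G14520 had 2873 and 2312 in zone 2 and 465 and 373 in zone 3 and fell by 2.58 (SE 0.36, adjusted p = 0.000127). Of 8 tested subunits of the CCT chaperonin, which folds tubulin and actin, 7 fell and the remaining 1 missed the threshold, with a median of -1.82. Its subunit AT3G11830 had 6877 and 6421 in zone 2 and 758 and 644 in zone 3 and fell by 3.22 (SE 0.34, adjusted p = 1.11e-05). For these 3 genes zone 3 was far below zone 2 on every array. Of 7 tested tubulins, TUB5 fell by 1.65 and TUB7 fell by 1.40, and their count became 1 without replicate 2 of either zone. Of 6 tested core histones 3 fell, a count of 0 without replicate 1 of zone 2 and 1 without any other single array. The 4 tested genes of cell division, AUR1, AUR2, AUR3 and PRL, did not pass limma's test at an adjusted or an unadjusted p below 0.05, with a median of -0.36. The falls of each of these lists stand beside 9.53% of all tested probe sets that fell.

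Among the other largest falls, NDB4, an external NAD(P)H dehydrogenase of mitochondria, had intensities of 971 and 1504 in zone 2 and 62.2 and 63.9 in zone 3 and fell by 3.95 (SE 0.44, adjusted p = 1.95e-05). PDF2.5, a plant defensin, had 1812 and 1487 in zone 2 and 62.6 and 140.5 in zone 3 and fell by 3.90 (SE 0.43, adjusted p = 1.77e-05). AT2G04050, without a role stated here, had 548 and 727 in zone 2 and 1.41 and 38 in zone 3, with a wide spread in zone 3, and fell by 4.40 (SE 0.69, adjusted p = 0.000337). AT2G41650, also without one, had 2859 and 2464 in zone 2 and 345 and 324 in zone 3, with close replicates, and fell by 2.93 (SE 0.27, adjusted p = 3.32e-06). The 14 largest falls of named genes ran from -3.31 (AT3G61100) to -4.49 (AT1G23410), and all 14 kept the call without any 1 of the 4 arrays. By group means at pH 4.6, 7 of them were brightest in zone 1 and 7 in zone 2.

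The pH 5.7 arrays show whether the step depended on pH. No array is shared between the pH 4.6 step and the pH 5.7 step. At pH 5.7, 5008 probe sets (30.5%) changed between zone 2 and zone 3. Of the 1653 rises at pH 4.6, 1171 also rose at pH 5.7, which is 70.8% of the rises at pH 4.6 and 52.5% of those at pH 5.7. Of the 1563 falls, 1207 were shared, 77.2% of those at pH 4.6 and 43.5% of those at pH 5.7. Across tested probe sets, which are not independent, the 2 steps had Pearson r 0.754.

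**Figure D3:**
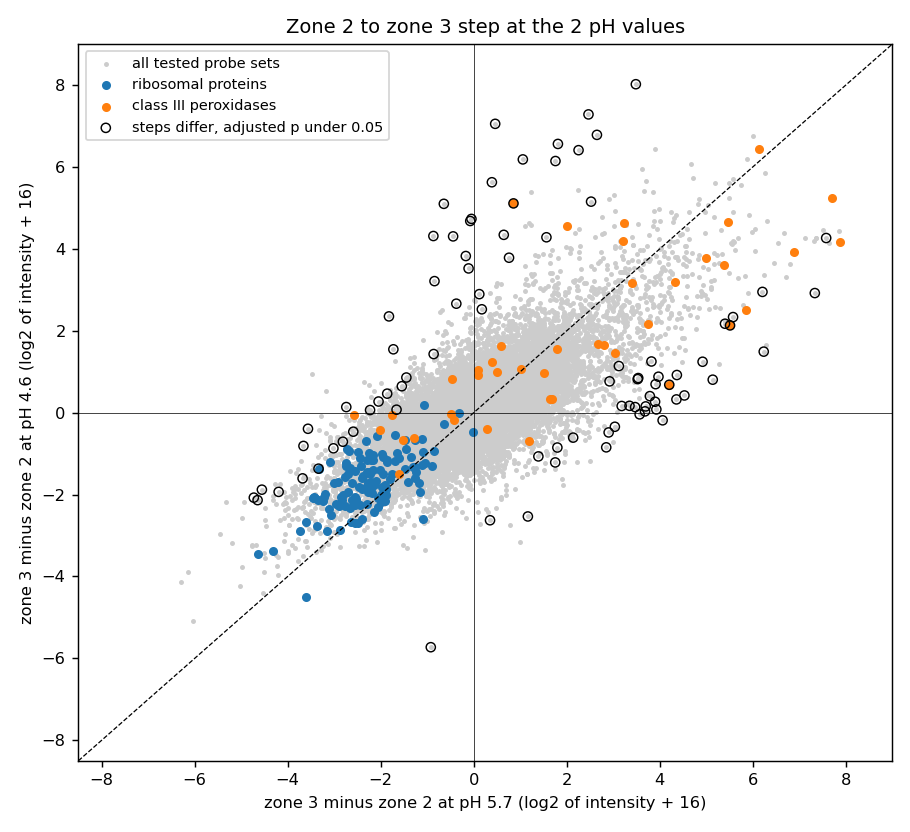
Zone 3 minus zone 2 at pH 5.7 (horizontal) and at pH 4.6 (vertical), both as differences of log2(intensity + 16), for 16405 tested probe sets. Blue marks ribosomal proteins, orange class III peroxidases, and open circles the 86 probe sets whose steps differ with an adjusted p below 0.05. The dashed line is equality, and the circles lie well above or below it.

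The difference between the steps was tested directly. It passed the threshold in 86 probe sets (0.524%), in 46 with a more positive step at pH 4.6 (0.28%) and in 40 with a more negative one (0.244%), and 2021 had an unadjusted p below 0.05. The median over all tested probe sets was 0.08. Of the 46, 18 rose at pH 4.6 without passing at pH 5.7, 11 fell at pH 5.7 without passing at pH 4.6, 8 rose at both and 6 fell at both, and 3 rose at pH 4.6 and fell at pH 5.7. Of the 40, 28 rose at pH 5.7 without passing at pH 4.6, 9 rose at both and 3 fell at pH 4.6 without passing at pH 5.7. The count of 86 was sensitive to single arrays. Leaving out replicate 1 or 2 of zone 2 at pH 4.6 gave 60 and 24, of zone 3 at pH 4.6 33 and 20, of zone 2 at pH 5.7 47 and 38, and of zone 3 at pH 5.7, the group with the lowest replicate correlation, 568 and 82.

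Among genes that rose more at pH 4.6 were 3 GDSL lipases and 1 peroxidase. AT5G09480 had intensities of 40.6 and 6.51 in zone 2 and 2408 and 2756 in zone 3 at pH 4.6 and 14.2 and 23.8 in zone 2 and 34.7 and 86.5 in zone 3 at pH 5.7. It was thus bright in zone 3 at pH 4.6 alone among these 4 groups, and the steps differed by 5.13 (SE 0.59, adjusted p = 0.000611). AT2G23540, whose pH 4.6 values are given above, had 11.3 and 6.3 in zone 2 and 46.3 and 104 in zone 3 at pH 5.7, a difference of 4.75 (SE 0.60, adjusted p = 0.00148). AT4G38080 had 5.24 and 20.3 in zone 2 and 139 and 136 in zone 3 at pH 5.7 and a difference of 4.82 (SE 0.61, adjusted p = 0.0015). These 3, with AT5G49350 and AT2G22510, kept the call without any 1 of the 8 arrays.

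AT5G49350 had intensities of 3.5 and 3.33 in zone 2 and 432 and 536 in zone 3 at pH 4.6 and 23.5 and 11.7 in zone 2 and 10.3 and 21.3 in zone 3 at pH 5.7, where the zones overlapped. Its steps differed by 4.75 (SE 0.69, adjusted p = 0.00442). AT2G22510 had 6.03 and 15.7 in zone 2 and 544 and 471 in zone 3 at pH 4.6 and 15.1 and 8.34 in zone 2 and 2.79 and 5.75 in zone 3 at pH 5.7, a difference of 4.75 (SE 0.53, adjusted p = 0.000517). The peroxidase AT2G35380 had 3.85 and 8.5 in zone 2 and 634 and 874 in zone 3 at pH 4.6 and 1.24 and 2.26 in zone 2 and 9.26 and 24.7 in zone 3 at pH 5.7, a difference of 4.25 (SE 0.68, adjusted p = 0.0108). Among GDSL lipases, AT1G74460 had 19.2 and 47.2 in zone 2 and 224 and 195 in zone 3 at pH 5.7 and a difference of 4.16 (SE 0.70, adjusted p = 0.0141), and AT3G50400 had 25.9 and 42.7 in zone 2 and 275 and 316 in zone 3 and a difference of 4.13 (SE 0.72, adjusted p = 0.0171). These with AT2G23540 were the 3 called members of 35 tested GDSL lipases, beside 0.28% of all tested probe sets. AT5G37690 had a difference of 4.14 (SE 0.91, adjusted p = 0.0583), which missed the threshold. By group means, the 8 named genes with the largest positive difference were all brightest in zone 4 at pH 4.6. For AT1G74460 the arrays overlapped, with 3023 and 2614 in zone 3 and 2736 and 3254 in zone 4.

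UGT72E1, a glucosyltransferase that acts on lignin precursors, moved in opposite directions. It had intensities of 11.5 and 87.9 in zone 2 and 285 and 231 in zone 3 at pH 4.6, a rise of 2.35 (SE 0.53, adjusted p = 0.00523), and 40.6 and 95.7 in zone 2 and 2.76 and 10.9 in zone 3 at pH 5.7, a difference of zones of -1.82 (adjusted p = 0.0158). The steps differed by 4.17 (SE 0.75, adjusted p = 0.0208).

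Genes with a more negative step at pH 4.6 differed among themselves in their levels. In AT1G51830 and AT1G05340 zone 2 was brighter at pH 4.6 than at pH 5.7. AT1G51830 had intensities of 673 and 690.1 in zone 2 and 794 and 924 in zone 3 at pH 4.6 and 44.3 and 3.22 in zone 2 and 589 and 788 in zone 3 at pH 5.7. Its zones differed at pH 5.7, and at pH 4.6 all 4 arrays were bright, so that the steps differed by -4.03 (SE 0.58, adjusted p = 0.00391). AT1G05340 had 284 and 396 in zone 2 and 1226 and 769 in zone 3 at pH 4.6 and 30.3 and 4.08 in zone 2 and 2518 and 2058 in zone 3 at pH 5.7, a difference of -4.74 (SE 0.74, adjusted p = 0.00918). In AT4G33730 and AT3G49960 zone 3 stayed dim at pH 4.6. AT4G33730 had 8.28 and 7.05 in zone 2 and 13.4 and 11.5 in zone 3 at pH 4.6 and 3.31 and 7.42 in zone 2 and 314 and 288 in zone 3 at pH 5.7, a difference of -3.63 (SE 0.67, adjusted p = 0.0249). The peroxidase AT3G49960 had 3.21 and 4.79 in zone 2 and 30.8 and 5.92 in zone 3 at pH 4.6 and 1.75 and 6.46 in zone 2 and 345 and 358 in zone 3 at pH 5.7, a difference of -3.52 (SE 0.74, adjusted p = 0.0473). A further peroxidase, AT4G33420, rose at both and less at pH 4.6, with a difference of -3.38 (SE 0.44, adjusted p = 0.00163). It had 562 and 763.5 in zone 2 and 3245 and 2630 in zone 3 at pH 4.6. At pH 5.7 it had 43.6 and 16.6 in zone 2 and 1724 and 2301 in zone 3. Its zone 3 was thus bright at both pH values, and its zone 2 was brighter at pH 4.6. The difference thus passed in 1 peroxidase as positive and 2 as negative of 41, beside 0.28% and 0.244% of all tested probe sets, and the call of AT3G49960 was kept in 1 of the 8 fits without 1 array. AT4G30670 had 1715 and 3448 in zone 2 and 3151 and 2320 in zone 3 at pH 4.6 and 707 and 613 in zone 2 and 6573 and 11560 in zone 3 at pH 5.7, so that at pH 4.6 zone 2 was brighter and zone 3 dimmer than at pH 5.7. Its steps differed by -3.54 (SE 0.60, adjusted p = 0.0141). AT5G24570 had 2110 and 4724 in zone 2 and 685 and 412 in zone 3 at pH 4.6 and 482 and 693 in zone 2 and 1285 and 1346 in zone 3 at pH 5.7, with zone 3 below zone 2 at pH 4.6 alone, and a difference of -3.70 (SE 0.62, adjusted p = 0.0141).

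Of the 16 genes named for a difference of the steps, 8 in each direction, 5 lost the call without replicate 1 and 7 without replicate 2 of zone 2 at pH 4.6, and 6 without replicate 1 and 9 without replicate 2 of zone 3 at pH 4.6. Without the pH 5.7 arrays in the same order 5, 7, 0 and 3 lost it, and 6 kept it without any 1 array. Outside the 16, the call held in 4 of the 8 such fits for AT3G50400 and in 8 for AT4G33420.

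**Figure D4:**
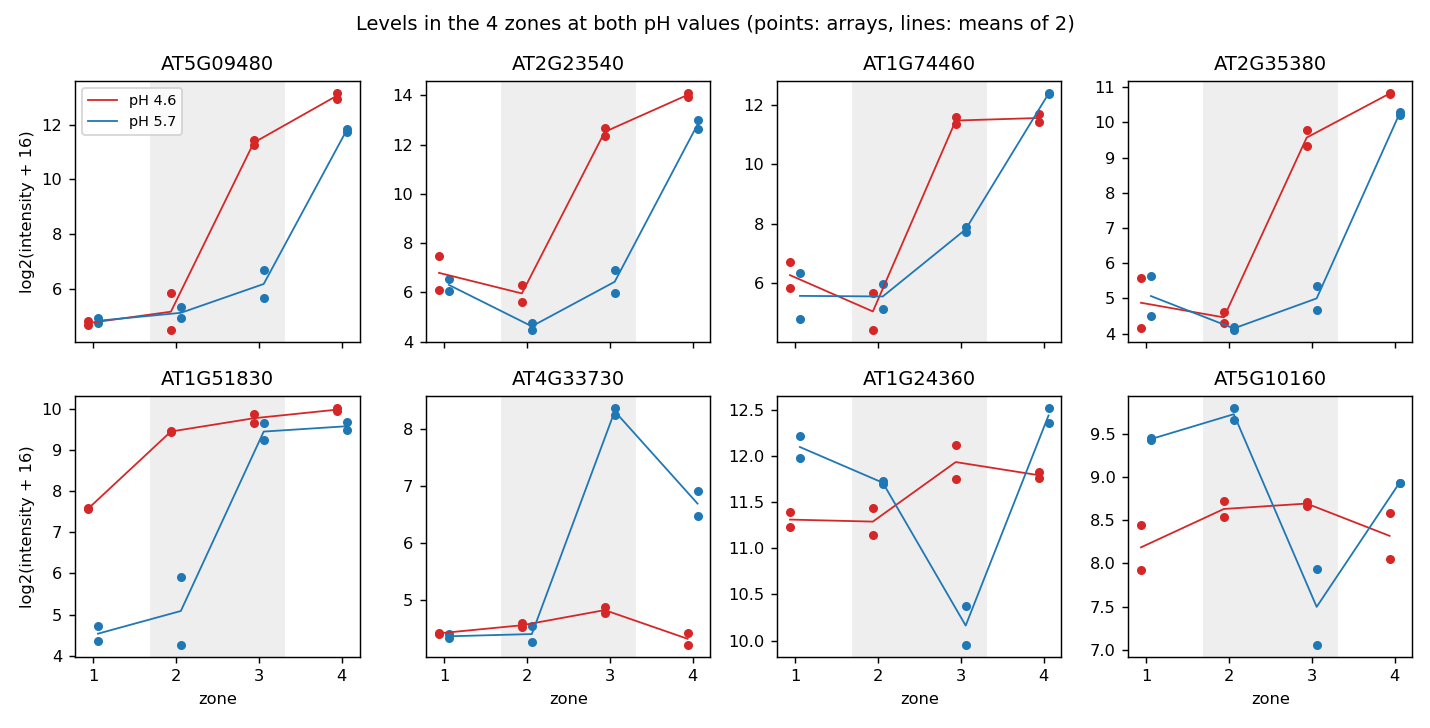
Levels of 8 genes in the 4 zones at pH 4.6 (red) and pH 5.7 (blue), as log2(intensity + 16) with a separate vertical scale for each gene. Points are arrays, lines join the means of 2, and zones 2 and 3 are shaded. The 4 genes of the upper row are bright in zone 3 at pH 4.6 and in zone 4 at both pH values, AT1G51830 is bright in zone 2 at pH 4.6, AT4G33730 is bright in zone 3 at pH 5.7, and AT1G24360 and AT5G10160 are dimmer in zone 3 at pH 5.7.

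Plastid fatty acid synthesis, which makes the acyl chains of membrane lipids, waxes and suberin, showed no change at pH 4.6 that passed limma's test in any of its 11 tested members, with 2 at an unadjusted p below 0.05 and a median of 0.05, whereas at pH 5.7, where 16.9% of all probe sets fell, 7 fell and none rose, with a median of -1.22. The list was assembled after 3 of its members had been seen to differ. Those 3, and counts and medians that include them, are therefore a description. AT1G24360, a ketoacyl reductase, had intensities of 2753 and 2244 in zone 2 and 4422 and 3430 in zone 3 at pH 4.6 and 3367 and 3300 in zone 2 and 1310 and 975 in zone 3 at pH 5.7, a difference of 2.19 (SE 0.36, adjusted p = 0.0123). AT5G10160, a hydroxyacyl dehydratase, had 406 and 356 in zone 2 and 405 and 391 in zone 3 at pH 4.6 and 875 and 790.0 in zone 2 and 229 and 117 in zone 3 at pH 5.7, a difference of 2.29 (SE 0.46, adjusted p = 0.0352). AT2G22230, its paralog, had a difference of 2.32 (SE 0.43, adjusted p = 0.0281). The difference was positive in all 11, the 3 seen beforehand included, with a median of 1.26 against 0.08 over all tested probe sets. The share of positive differences over all tested probe sets is not given, so these values only describe the list. A positive difference passed the test in 0.28% of all tested probe sets. The 3 calls became 2 without replicate 1 and 0 without replicate 2 of zone 2 at pH 4.6, and 1 without either array of zone 3 at pH 4.6. Without the pH 5.7 arrays they became 1 for either array of zone 2, 5 for replicate 1 of zone 3 and 1 for its replicate 2.

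Ribosomal proteins fell at both pH values. The median was -1.71 at pH 4.6 and -2.27 at pH 5.7. More of all tested probe sets changed at pH 5.7 (5008) than at pH 4.6 (3216). The share with a step closer to 0 at pH 4.6 is not given for all of them. It was 28 of 41 for class III peroxidases and 18 of 38 for UDP-glycosyltransferases. Of the 122 ribosomal proteins, the pH 4.6 step was the closer to 0 in 96. Without the share over all tested probe sets, this count is not read as particular to them. The difference of the steps passed the test in 1, AT3G13580, with intensities of 4893 and 4506 in zone 2 and 2080 and 1573 in zone 3 at pH 4.6, 6517 and 6747 in zone 2 and 782 and 526 in zone 3 at pH 5.7 and a difference of 1.97 (SE 0.38, adjusted p = 0.0296), a call kept in 1 of the 8 fits without 1 array. Over the list its median was 0.57, against 0.08 over all tested probe sets. The 4 endodermal genes rose at both, with medians of 4.10 at pH 4.6 and 5.86 at pH 5.7, and the difference passed limma's test in none of them. It was negative in all 4, each with an unadjusted p below 0.05. Of all 16405 tested probe sets, 2021 had such a p, in either direction. Lipid-transfer proteins had medians of 3.04 and 3.54, and the difference passed in 1 of 13, AT3G53980, with 7.05 and 9.88 in zone 2 and 3735 and 5770 in zone 3 at pH 5.7 and a difference of -3.31 (SE 0.62, adjusted p = 0.0281), a call kept in 1 of the 8.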

How the data were processed

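RNA of root zones was measured on Affymetrix arrays, with 1 array per sample, 16 in all. Per the labels, column-purified RNA went through 2 rounds of amplification and was labelled with biotin. The deposited table holds 1 linear intensity per probe set and array, which the submitters' processing notes credit to MAS5, with no version given. The trimmed mean of the deposited intensities was 249.9 on every array, and their number limits the precision.

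Groups came from the sample titles. The 64 control probe sets were dropped. The platform annotation gave 13513 probe sets a single gene, of which 13436 were in the RefSeq table of TAIR10.1. Coordinates are not printed, as no build is stated. Values were analysed as log2(value + 16) where at least 1 zone mean reached the 40th percentile, 5.95. The linear model had 1 mean for each of 8 groups (limma 3.58.1, R 4.3.3; lmFit and eBayes with trend; 8 residual and 7.44 prior degrees of freedom), with p-values adjusted by Benjamini-Hochberg and a threshold of 0.05. Contrasts were zone 3 against zone 2 at each pH and the difference of these steps.

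Named genes were the 14 largest rises and falls among called single-gene probe sets whose zones did not overlap, the 4 steadiest in each direction, the 8 largest differences of the steps in each direction, and up to 4 called members of each list in each direction. The members and lists were chosen with earlier results of these data known. Families by locus, among them the GDSL lipases, lipid-transfer proteins, pectin methylesterases and fatty acid genes, were assembled after leading genes had been seen. Genes outside these rules (the 3 fatty acid genes, AT3G50400, AT4G33420 and AT3G13580 for the difference of the steps, and members named because they did not pass) were chosen after their values were seen.

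Samples of different zones share replicate numbers. The labels do not say what a number marks, and the numbers were not taken to pair samples. Alternatives were pseudocounts of 1 and 64, other filters, quantile and median scaling, no trend, a replicate block, a fit on the compared arrays alone and each array left out.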

Additional observations from a re-analysis of the deposited data

Results flagged for a closer look

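The zone step differed between pH 4.6 and pH 5.7 by a direct limma test of the difference for 16 named genes, the 8 largest in each direction, with 2 arrays in each of the 4 groups compared. It was more positive at pH 4.6 for AT5G09480 (5.13), AT4G38080 (4.82), AT5G49350 (4.75), AT2G23540 (4.75), AT2G22510 (4.75), AT2G35380 (4.25), UGT72E1 (4.17) and AT1G74460 (4.16). It was more negative for AT1G05340 (-4.74), AT4G30320 (-4.25), AT1G51830 (-4.03), AT5G24570 (-3.70), AT4G33730 (-3.63), AT3G18450 (-3.61), AT4G30670 (-3.54) and AT3G49960 (-3.52). Each value is a difference of log2 steps.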

How the results depend on the processing

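The count of probe sets that changed at pH 4.6, 3216, lay between 2861 (pseudocount 1) and 3581 (fit on the compared arrays only) under the alternatives that kept all arrays, and between 1491 and 2224 without 1 array. A fit that leaves out an array assumes that the lone sample varies like the other groups. The count for the difference of the steps, 86, was 44 with pseudocount 1 (31 positive, 13 negative), 172 with pseudocount 64 (72 positive, 100 negative) and 27 in a fit on the compared arrays only (15 positive, 12 negative). It lay between 20 and 568 without 1 array, the highest without replicate 1 of zone 3 at pH 5.7. The cause was not tested. With the replicate number as a block the counts were 3297 and 78, and 107 of the 108 genes named for the pH 4.6 step and 14 of the 16 named for the difference kept their calls. The calls lost were AT5G19510 for the step (limma adjusted p = 0.0533, from 0.0307 to 0.184 over all alternatives) and, for the difference, AT3G18450 (0.0512, from 0.0096 to 0.192) and AT3G49960 (0.0533, from 0.00208 to 0.28). Same-numbered samples deviated from their group means with correlations from -0.25 to 0.41 over 28 pairs of groups. The correlation was -0.04 for zone 2 and zone 3 at pH 4.6, and from 0.28 to 0.41 among zone 2 at pH 5.7, zone 3 at both pH values and zone 4 at pH 5.7. Under every alternative run, 76 of the 108 and 4 of the 16 kept theirs, and no sign turned among them. Dim signal limits the folds: 610 of the rises started below the filter level and 230 of the falls ended below it.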

Other observations

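Further gene lists are given for the step from zone 2 to zone 3 at pH 4.6, where 10.1% of all tested probe sets rose and 9.53% fell. Of 7 tested CYP71B cytochromes P450, 4 rose and none fell, with a median of 1.32. Zone 3 was above zone 2 on every array in 6 of the 7, and the 4 calls became 1 without replicate 1 and 2 without replicate 2 of zone 2, and 1 without replicate 1 and 2 without replicate 2 of zone 3. Of 18 tested trichome birefringence-like proteins, which acetylate wall polysaccharides, 2 rose and 2 fell. Of 11 tested GH9 endoglucanases, 2 rose and 1 fell. Of 10 tested tau glutathione transferases 1 rose, GSTU23, and the count became 3 without replicate 2 of zone 2. Of 7 tested cytosolic translation factors 1 fell, AT5G19510, and 3 had a positive and 4 a negative difference, with an unadjusted p below 0.05 by limma in 2 of the positive and 3 of the negative. The count became 0 without any 1 array other than replicate 2 of zone 3. The 69 plastid-encoded probe sets had mean log2 levels of 8.04 and 8.14 in zone 2 and 7.90 and 9.89 in zone 3. Replicate 2 of zone 3 alone was thus above zone 2. Both zone 3 arrays exceeded both zone 2 arrays in 21 of the 69, beside 30.1% of all tested probe sets. Of the 69, 1 rose, psbA, and the difference was positive in 56, with a median of 0.89. The count became 0 without either array of zone 2 and 2 without replicate 1 of zone 3. None of the tested members passed for the stem cell niche (2), the 20S proteasome core (1), phloem (1), primary wall cellulose synthesis (1) and flavonoid synthesis (1). Root cap, suberin, xylem, aquaporin, nutrient uptake and auxin transport lists had no tested member and are not analysed here.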
